A study of Mus musculus with 6 samples.

Results

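The genes described here are 10 parts of the machinery that decides whether a cell leaves the G1 phase of its cycle. They are the D-type cyclins Ccnd1, Ccnd2 and Ccnd3, the kinases Cdk4 and Cdk6, the INK4 inhibitors Cdkn2a, Cdkn2b and Cdkn2c, the CIP/KIP inhibitor Cdkn1b, and Rb1. The set was drawn up with earlier results of these data known, in which S phase and G2/M genes were higher in knockout cells, and its rows were then found by symbol. All 10 were found among the 55416 genes of the count table and passed the filter on low counts that left 17659 genes for testing. The RNA came from keratinocytes, the epithelial cells of the epidermis, cultured as primary cells from mouse pups 1 to 2 days old on a C57BL/6J:129 hybrid background. One group was wild type and the other was a knockout of Cebpb, which encodes the transcription factor C/EBPβ; the labels do not describe the allele. Both groups, of 3 libraries each, were grown with EGF in 0.05 mM calcium, which restrains differentiation. All cells were irradiated with UVB (312 nm, 10 mJ/cm2) and harvested after 8 h, so no comparison with unirradiated cells was made. The labels do not say whether libraries of a genotype came from separate pups or cultures, and the spread that p-values measure here may be technical.

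D-type cyclins are made in response to growth factors and bind CDK4 or CDK6. The active kinases phosphorylate the retinoblastoma protein, product of Rb1, which then releases E2F factors to switch on genes of DNA replication. INK4 proteins bind CDK4 and CDK6 directly and block them, whereas p27, the product of Cdkn1b, acts mainly on CDK2 complexes. In epidermis, basal keratinocytes cycle and withdraw from the cycle as they differentiate, and Cdkn2a is known for its induction in aging and stressed cells in culture. Cdkn2a encodes both p16INK4a and p19ARF from separate first exons, and p19ARF acts on p53 through MDM2 rather than on CDK4.

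Wild type libraries held 107757415 to 122797031 counts and knockout libraries 81256192 to 92987497, and levels are given as counts scaled to a common library size (CPM), where 3 counts are at most 0.0349. The deleted gene Cebpb had a level of 145 ± 21.9 CPM in wild type cells, against 0.942 ± 0.143 CPM without the gene (SD, n = 3 each). Keratinocyte markers, 10 genes of which none was at 0, summed to 41949 to 47010.4 CPM in wild type libraries, above the 24889.9 to 25903 CPM of knockout libraries. Melanocyte markers summed to 695 to 783 and 607 to 688 CPM, fibroblast markers to 5.14 to 6.54 and 4.18 to 4.64 CPM, endothelial markers to 7.15 to 7.96 and 5.19 to 6.10 CPM, and immune markers to 0.619 to 1.00 and 0.820 to 1.14 CPM. Of the tested markers, 8 of 10 keratinocyte, 5 of 7 melanocyte, 1 of 5 fibroblast and 1 of 3 endothelial genes were called lower in knockout cells. Called higher were 1 keratinocyte gene (Itgb4, log2 fold change 0.52) and 2 of 3 immune genes. Over all genes tested, 23.7% were called lower and 24.8% higher. Lum, Cd3e and Cdh5, which mark fibroblasts, T cells and endothelium, were at 0 in all 6 libraries, but other genes of these lists were not. Pdgfra of the fibroblast list fell from a mean of 3.17 to 1.67 CPM (log2 fold change -0.93 ± 0.17, SE), and Kdr of the endothelial list from 6.36 to 4.77 CPM (-0.42 ± 0.13). Trdc, a T cell receptor gene, was called higher, at 0.0293 ± 0.0343 CPM in wild type cells against 0.438 ± 0.132 CPM (edgeR adjusted p = 1.75e-04). It had only 1, 8 and 1 counts in wild type libraries. Other immune genes went the other way, Adgre1 from 0.169 ± 0.0959 to 0.00336 ± 0.00582 CPM and Itgam from 0.130 ± 0.0453 to 0.0202 ± 0.0349 CPM. Both had too few counts to be tested, and Fcer1g was lower without a call (-0.98, edgeR adjusted p = 0.236). Y-linked transcripts summed to 60.7 to 68.1 CPM in wild type libraries and were nearly absent from knockout libraries (0.101 to 0.158 CPM), a difference that ran with genotype. Y-linked RNA comes from male cells, so the sex of the cells and genotype cannot be told apart for any gene below. Mitochondrial transcripts took 1.469% to 1.642% of counts in wild type libraries, below the 1.786% to 2.175% of knockout libraries. The part of these differences in the results below was not tested. In bulk RNA, fewer cells of a type and less RNA per cell cannot be told apart.

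Windows of 250 bases before annotated starts were at hand for 7 of the 10 genes, 10 windows in all, from RefSeq on build GRCm38.p6, which is older than the build of the counts. The 5 printed here, 5′ to 3′, were taken because the genes they precede moved most among the inhibitors, or because the window holds a cluster of matches. The INK4 genes come first, since Cdkn2a and Cdkn2b lie side by side on chromosome 4 and were both higher in knockout cells, while Cdkn2c lies elsewhere on that chromosome and was lower. Capitals mark matches on either strand to TTGCNNAA (the C/EBP core), TTTCCCGC or TTTGGCGC (E2F), TGACTCA or TGAGTCA (AP-1, each the reverse complement of the other) and CACGTG (the E box bound by MYC and related factors).
Cdkn2a, outer start, from which p19ARF is made (chr4:89294620-89294869, minus strand): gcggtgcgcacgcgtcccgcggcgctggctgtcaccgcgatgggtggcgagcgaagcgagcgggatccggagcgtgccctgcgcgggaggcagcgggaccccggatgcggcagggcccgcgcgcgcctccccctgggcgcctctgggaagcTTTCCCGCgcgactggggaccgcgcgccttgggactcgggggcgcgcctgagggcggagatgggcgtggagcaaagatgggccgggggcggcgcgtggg
Cdkn2a, inner start, from which p16INK4a is made (chr4:89282193-89282442, minus strand): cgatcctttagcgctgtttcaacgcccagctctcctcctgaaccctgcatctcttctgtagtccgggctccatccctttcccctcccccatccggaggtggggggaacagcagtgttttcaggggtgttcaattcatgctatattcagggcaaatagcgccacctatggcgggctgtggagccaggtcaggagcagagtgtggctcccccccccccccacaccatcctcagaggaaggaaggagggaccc
Cdkn2b (chr4:89311033-89311282, minus strand): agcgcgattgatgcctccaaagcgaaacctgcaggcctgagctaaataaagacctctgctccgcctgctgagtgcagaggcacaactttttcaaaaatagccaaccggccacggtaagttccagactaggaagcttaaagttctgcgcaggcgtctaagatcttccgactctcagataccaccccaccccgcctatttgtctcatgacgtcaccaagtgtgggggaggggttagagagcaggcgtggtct
Cdkn2c, outer start (chr4:109666757-109667006, minus strand): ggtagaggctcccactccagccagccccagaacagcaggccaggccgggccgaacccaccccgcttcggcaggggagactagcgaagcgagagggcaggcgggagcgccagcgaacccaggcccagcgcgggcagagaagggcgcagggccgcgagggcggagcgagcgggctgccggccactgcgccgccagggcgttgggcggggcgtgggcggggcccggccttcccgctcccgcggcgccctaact
Cdk4 (chr10:127063285-127063534, plus strand): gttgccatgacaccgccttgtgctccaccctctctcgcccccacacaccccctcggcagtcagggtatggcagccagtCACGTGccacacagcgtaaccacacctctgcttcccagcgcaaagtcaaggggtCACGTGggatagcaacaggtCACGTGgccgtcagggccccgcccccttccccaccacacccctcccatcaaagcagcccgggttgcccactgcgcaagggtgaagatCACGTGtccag

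None of the 10 windows held the C/EBP core, which occurred in 9.56% of the 32851 RefSeq windows of this length, nor an AP-1 match, which occurred in 4.46%. That says only that these letters are not in these 250 bases. The outer Cdkn2a window held 1 E2F match, beginning 99 bases before the start, and 1.3% of all windows held one. Cdk4 had 4 E boxes, beginning 172, 118, 98 and 11 bases before its start, and Cdk6 had 1, at 220 bases. An E box occurred in 6.02% of windows, and 4 or more in 7 windows (0.0213%). These matches are descriptions of the reference sequence and not binding sites measured in these cells.

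By the quasi-likelihood test of edgeR, adjusted over all 17659 genes, 8 of the 10 were higher in knockout cells, 1 was lower, and Ccnd3 was not called. The test called 48.6% of all genes, 24.8% higher and 23.7% lower, so a call by itself was common in this comparison. Groups of CPM did not overlap in the same count of 9 members, where 56.4% of all genes did not overlap. Their median log2 fold change (knockout over wild type throughout) was 0.52, beside 0.01 over all genes. Under library totals in place of the trimmed mean of M values (TMM), which moved the median of all genes from 0.01 to 0.21, 9 members were called higher and 1 lower. That scaling called 6478 genes higher and 2452 lower, against 4387 and 4192 with TMM.

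**Figure D1:**
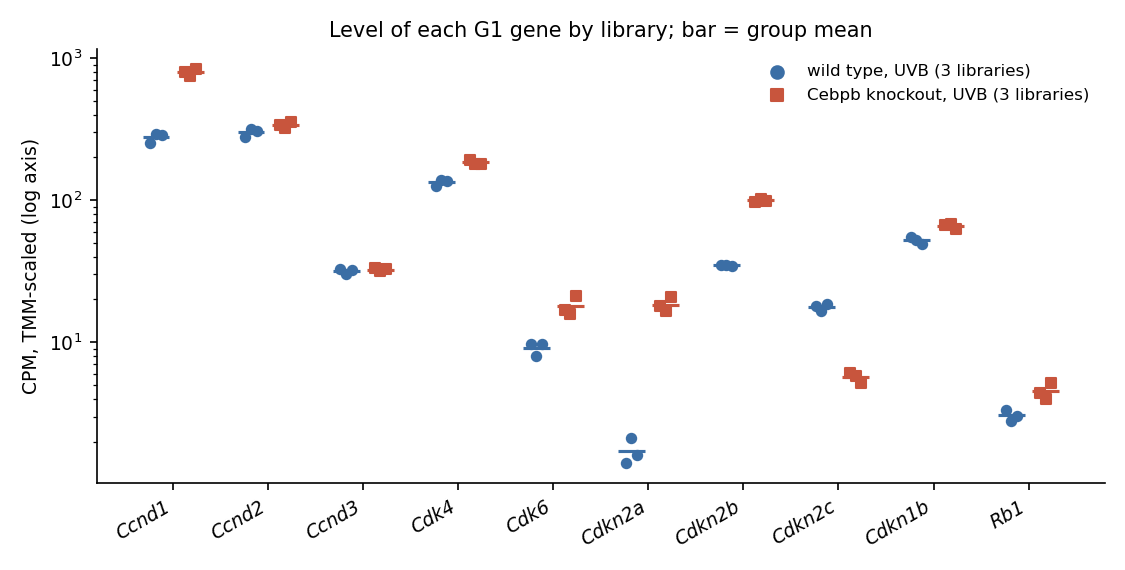
Level of each of the 10 genes in each library, in TMM-scaled CPM on a log axis; circles are the 3 wild type and squares the 3 knockout libraries, and bars are group means. The groups stand apart in every gene except Ccnd3, with Cdkn2c the one that is lower in knockout cells.

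Among the D-type cyclins, Ccnd1 had the largest fold change. Ccnd1 (ENSMUSG00000070348), the cyclin most directly induced by growth factor signalling, stood at 250.5, 294 and 289 CPM in wild type libraries. The knockout libraries had 793, 743 and 838 CPM. Every knockout library was thus far above the highest wild type library, and the gene rose by 1.51 ± 0.07 log2 units (SE, edgeR adjusted p = 4.66e-11), or 2.85-fold. Its rise was larger than that of 91.96% of all genes, counted by size in either direction.

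Ccnd2 (ENSMUSG00000000184), a D-type cyclin with the same kinase partners, lay at 278, 317 and 308 CPM in wild type and at 336, 320.2 and 352 CPM in knockout libraries. The groups were apart by only a small margin, and the log2 fold change of 0.16 ± 0.06 was at the edge of the threshold (edgeR adjusted p = 0.04675). The call was lost with DESeq2's test (0.15, adjusted p = 0.0865), with DESeq2 size factors in edgeR (0.15, adjusted p = 0.0623), and on leaving out wild type replicate 1 (0.10, edgeR adjusted p = 0.192) or 3 (0.17, 0.0848) or knockout replicate 4 (0.16, 0.0911) or 6 (0.12, 0.173). Ccnd3 (ENSMUSG00000034165), the D-type cyclin best known from lymphoid cells and muscle, lay at 32.6, 30.3 and 32.5 CPM in wild type and 33.1, 31.9 and 32.5 CPM in knockout libraries. These ranges overlapped, and the log2 fold change was 0.03 with a 95% interval of -0.12 to 0.19 (edgeR adjusted p = 0.754). With library totals Ccnd3 was called higher (0.23, edgeR adjusted p = 0.0187).

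The make-up of the D-type cyclin transcripts is a comparison within each library that no scaling of libraries can alter. Per kb of exon, Ccnd1 made up 61.5%, 62.6% and 62.7% of their sum in wild type libraries and 81.0%, 80.7% and 81.2% in those of the knockout. The Ccnd2 share was 33.9% ± 0.329 in wild type and 17.2% ± 0.171 in knockout cells, and that of Ccnd3 was 3.85% ± 0.419 and 1.79% ± 0.0871 (SD, n = 3 each). Without scaling by length Ccnd2 was the largest share in wild type cells (49.3%, with Ccnd1 at 45.4%), and Ccnd1 was again the largest in knockout cells (68.2%). Shares of the 3 genes sum to the whole, so they are not separate results. Each share differed with an exact two-sided permutation p = 0.1, the smallest that 3 against 3 libraries allow. Per count of Ccnd2 there were 0.901 to 0.936 counts of Ccnd1 in wild type cells and 2.32 to 2.38 in knockout cells.

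**Figure D2:**
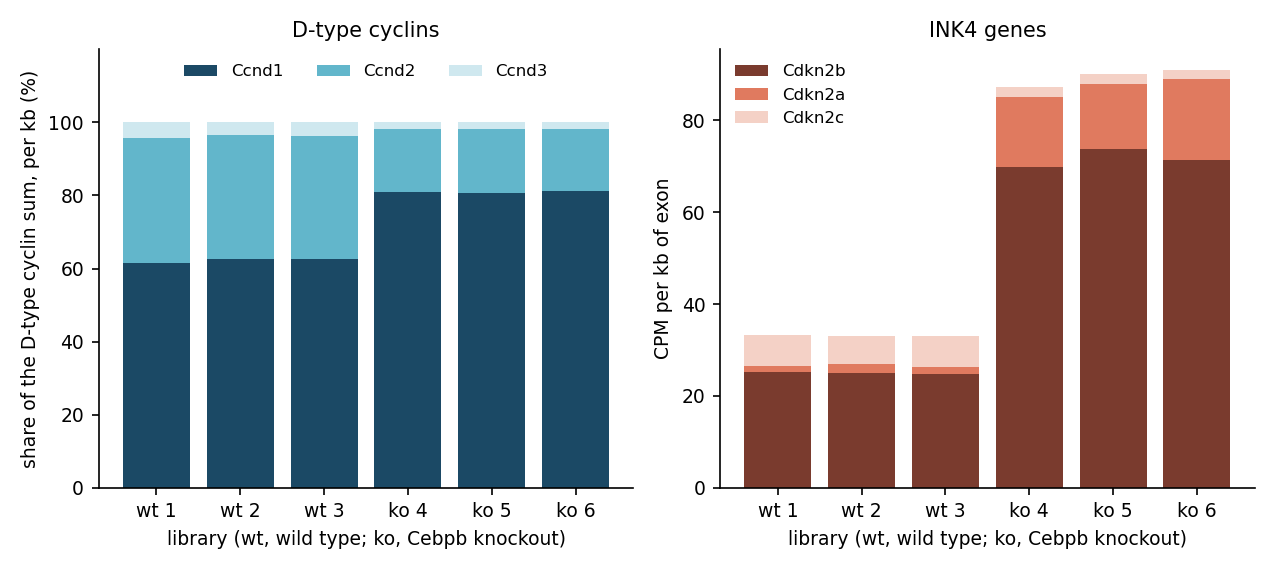
Left, share of Ccnd1, Ccnd2 and Ccnd3 in their sum of counts per kb of exon in each library, in percent. Right, stacked levels of the INK4 genes Cdkn2a, Cdkn2b and Cdkn2c in CPM per kb of exon, without Cdkn2d. The Ccnd1 share is 61.5% to 62.7% in wild type cells and 80.7% to 81.2% in knockout cells, and the INK4 stack averages 33.1 and 89.4 CPM per kb, with Cdkn2b its main part in all 6.

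Both kinase genes, Cdk4 and Cdk6, were higher in knockout cells. Cdk4 (ENSMUSG00000006728) stood at 125, 139 and 136 CPM in wild type and at 193, 180.5 and 181 CPM in knockout libraries. The knockout libraries were all above the wild type ones, and Cdk4 rose by 0.47 ± 0.06 log2 units (SE, edgeR adjusted p = 7.38e-06). Cdk6 (ENSMUSG00000040274), its close relative, stood at 9.76, 7.98 and 9.72 CPM in wild type and 16.9, 15.7 and 21.1 CPM in knockout libraries. Its groups were also apart, with knockout replicate 6 the highest, and it rose by 0.97 ± 0.12 (SE, edgeR adjusted p = 7.81e-06). Cdk4 was counted 12.8 to 17.4 times per count of Cdk6 in wild type libraries and 8.58 to 11.5 times in knockout libraries. That log2 ratio was 3.87 ± 0.228 in wild type cells, against 3.38 ± 0.242 (SD, n = 3 each, exact permutation p = 0.1, the smallest possible).

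Per kb of exon, which allows genes to be set side by side, Cdk4 lay at 41.0 and Cdk6 at 0.654 CPM per kb in wild type cells, and at 56.9 and 1.28 in knockout cells. Summed over both genes, CDK4 and CDK6 transcripts were at 41.7 ± 2.27 CPM per kb in wild type and 58.1 ± 2.09 in knockout cells (SD, n = 3 each). The D-type cyclin sum was at 94.6 ± 7.11 and 207 ± 11.8 CPM per kb, so cyclin transcripts per kinase transcript were 2.27 ± 0.0485 in wild type and 3.57 ± 0.224 in knockout cells. These sums were grouped after values were seen and carry no test.

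The 3 INK4 genes of the set moved apart. Cdkn2a (ENSMUSG00000044303) was scarce in wild type libraries, with 158, 248 and 160 counts or 1.42, 2.13 and 1.60 CPM, and reached 17.9, 16.7 and 20.7 CPM in the knockout libraries (1702, 1653 and 1779 counts). It rose by 3.42 ± 0.15 log2 units (SE, edgeR adjusted p = 3.87e-11), or 10.7-fold, a size larger than that of 98.88% of all genes in either direction. Counts are per gene, so transcripts of p16INK4a and p19ARF cannot be told apart. Wild type replicate 2 was the highest of its group, and the log2 fold change stayed between 3.29 and 3.61 with each of the 6 libraries left out in turn.

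Cdkn2b (ENSMUSG00000073802), which encodes p15INK4b and is known as a target of TGF-β, lay at 35.1, 34.8 and 34.5 CPM in wild type and 97.0, 102 and 99.1 CPM in knockout libraries. The libraries of each group were close together, with a coefficient of variation of 0.834% in wild type and 2.76% in knockout cells, and the gene rose by 1.52 ± 0.06 log2 units (SE, edgeR adjusted p = 1.43e-11). Cdkn2a and Cdkn2b have related coding sequences. Their annotated transcripts shared no exact stretch longer than 23 bases, beside a read length of 150 bp. Stretches alike but for mismatches were not searched, and assignment of reads to the wrong gene of the pair was not tested. Cdkn2a counts were 0.0404 to 0.0612 per count of Cdkn2b in wild type cells and 0.163 to 0.209 in knockout cells. On the log2 scale this ratio differed by 1.92 (exact permutation p = 0.1, the smallest possible).

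Cdkn2c (ENSMUSG00000028551), which encodes p18INK4c, went the other way. It lay at 18.1, 16.5 and 18.7 CPM in wild type and at 6.05, 5.77 and 5.18 CPM in knockout libraries. All knockout libraries were below all wild type libraries, and the gene fell by 1.65 ± 0.11 log2 units (SE, edgeR adjusted p = 3.56e-09). Its log2 fold change stayed between -1.70 and -1.45 in the 12 alternatives tried. Per count of Cdkn2c there were 1.85 to 2.11 counts of Cdkn2b in wild type cells and 16.0 to 19.2 in knockout cells. The sum of these 3 INK4 genes was 33.1 ± 0.0789 CPM per kb in wild type and 89.4 ± 1.89 in knockout cells (SD, n = 3 each). Of this, Cdkn2b alone was 25.0 and 71.6. The sum leaves out Cdkn2d, another INK4 gene, at 3.86 CPM per kb in wild type and 4.90 in knockout cells. It counts all Cdkn2a reads, so any transcripts of p19ARF are included. Transcripts of the 3 genes per CDK4 and CDK6 transcript were 0.796 ± 0.0463 in wild type and 1.54 ± 0.0849 in knockout cells, again a description with no test.

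**Figure D3:**
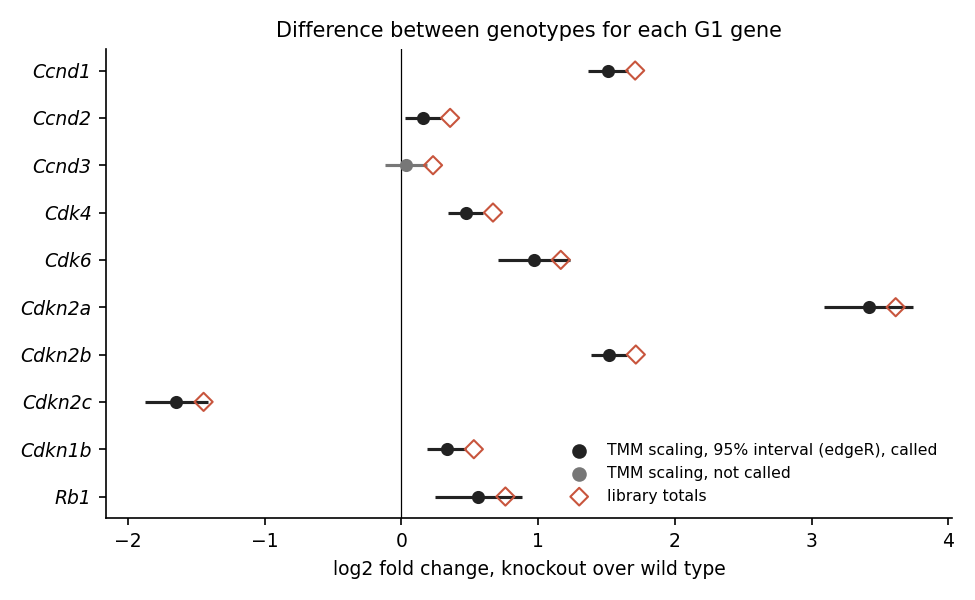
Log2 fold change of each of the 10 genes, knockout over wild type; filled points with bars are TMM-scaled edgeR estimates with 95% intervals, and open diamonds are the estimates under library totals. Cdkn2a has the largest rise at 3.42 and Cdkn2c the one fall at -1.65, and the diamonds lie to the right of every point.

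Cdkn1b (ENSMUSG00000003031), the p27 gene, stood at 55.4, 52.6 and 49.3 CPM in wild type and at 66.8, 68.3 and 62.6 CPM in knockout libraries. The groups were apart and the gene rose by 0.33 ± 0.07 log2 units (SE, edgeR adjusted p = 7.69e-04), a size that 45.0% of all genes did not exceed. Cdkn1b had 0.171 to 0.221 counts per count of Ccnd1 in wild type cells and 0.0748 to 0.0920 in knockout cells. Rb1 (ENSMUSG00000022105), which encodes the retinoblastoma protein, was the scarcest of the 10 per kb in both genotypes. It lay at 3.32, 2.81 and 3.03 CPM in wild type and 4.39, 4.01 and 5.13 CPM in knockout libraries, and rose by 0.56 ± 0.15 (SE, edgeR adjusted p = 0.00524).

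Some of these genes overlap neighbours on the opposite strand, and the strand setting of the counting is not given in the sources used here, so reads of the shared exons cannot be told apart. In the GENCODE M21 annotation, Rb1 shares 8.11% of its exon length with Rcbtb2 and 6.78% with Lpar6, a receptor gene inside an Rb1 intron. Lpar6 took more counts than Rb1, at 35.6 ± 4.28 and 46.8 ± 4.41 CPM, and rose by 0.40, as Rcbtb2 did by 0.71, so the small rise of Rb1 is uncertain. Ccnd1 shares 23.4% of its exon length with LTO1, a gene of ribosome assembly, which was not called (52.7 ± 5.09 and 47.3 ± 1.43 CPM, log2 fold change -0.16, or 0.04 with library totals). Cdk4 shares 19.7% with Tspan31, a tetraspanin gene, which fell by 0.23, a call that ended with library totals (-0.03, edgeR adjusted p = 0.727). Ccnd3 shares 4.11% with Bysl, a gene of ribosome assembly, which fell by 0.78. Leaving out wild type replicate 2 made LTO1 a called fall (-0.23, edgeR adjusted p = 0.0163). The part of reads from shared exons in the levels of any of these genes was not tested.

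Ccnd2 shares 3.95% and 3.91% of its exon length with the antisense genes Gm43126 and 9330179D12Rik, and Cdk6 shares 2.63% with Gm17590. The nearest tested gene on each side of each member was also read. Beside the Cdkn2a and Cdkn2b pair, the noncoding Gm12606 fell (0.531 ± 0.0939 to 0.125 ± 0.106 CPM) and Dmrta1 rose (0.295 ± 0.0400 to 0.823 ± 0.187 CPM), both under 1 CPM. Next to Cdkn2c, the ubiquitin ligase gene Rnf11 fell from 378 ± 12.6 to 193 ± 0.659 CPM and Faf1 fell by 0.36, although the call of Faf1 ended with library totals (-0.16, edgeR adjusted p = 0.242) and on leaving out wild type replicate 1 (-0.29, edgeR adjusted p = 0.057) or knockout replicate 5 (-0.31, 0.0639). Tigar, beside Ccnd2, rose by 0.29 and Tpi-rs11, on its other side, fell by 0.83, the latter not called without wild type replicate 3 (edgeR adjusted p = 0.052). On the other side of Ccnd1, Tpcn2 fell by 0.55, a call that ended with library totals (-0.35, edgeR adjusted p = 0.053). March9, on the side of Cdk4 away from Tspan31, rose by 0.40. The genes flanking Cdk6 and Cdkn1b were not called, with log2 fold changes of 0.16 and -0.07 (Gm15772 and Fam133b) and of -0.13 and 0.46 (2810454H06Rik and Lockd), nor was Taf8 beside Ccnd3 (-0.14).

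Ordered by level per kb of exon, the wild type cells ran from Ccnd1 at 59.0 ± 5.02 CPM per kb through Cdk4 (41.0), Ccnd2 (32.0), Cdkn2b (25.0), Cdkn1b (11.5), Cdkn2c (6.61), Ccnd3 (3.62), Cdkn2a (1.47) and Cdk6 (0.654) to Rb1 at 0.508 ± 0.0421. No neighbours in that order overlapped over the 3 wild type libraries. In knockout cells Ccnd1 again led, at 168 ± 10.1 CPM per kb, and Cdkn2b (71.6) passed Cdk4 (56.9) and Ccnd2 (35.7) to rank second. Cdkn2a moved from the eighth place to the fifth (15.7), where it overlapped Cdkn1b (14.5), and Cdkn2c dropped below Ccnd3 (2.11 and 3.70). Exon length here is the union over annotated transcripts, which understates genes whose longest forms are not the ones expressed.

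**Figure D4:**
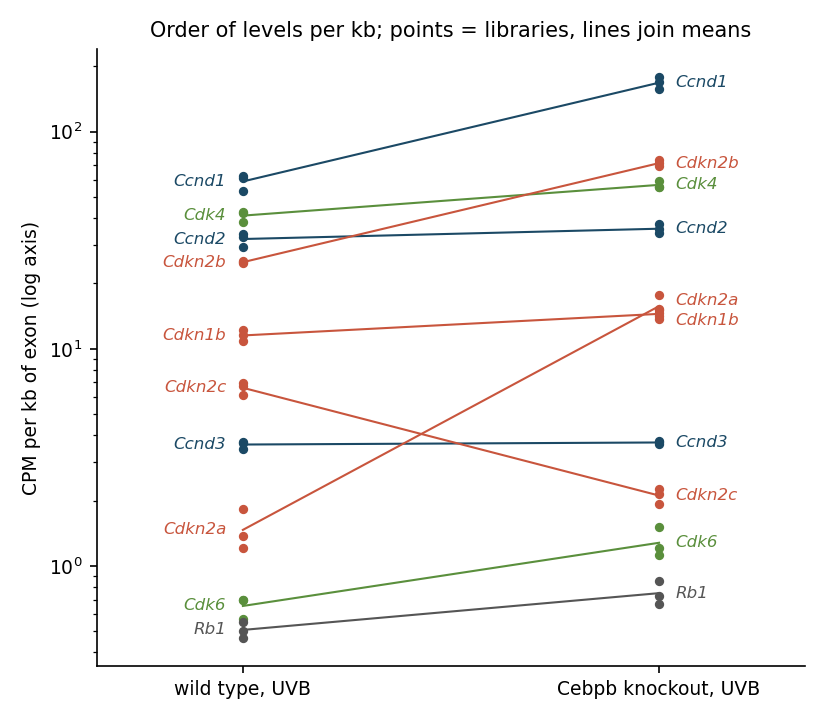
Level of each gene in CPM per kb of exon (log axis) in wild type and knockout cells; points are single libraries and lines join the group means. Cdkn2b goes from the fourth rank to the second and Cdkn2a from the eighth to the fifth, while Ccnd1 leads in both genotypes.

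Other CDK inhibitors outside the 10 did not share 1 direction. Cdkn1c, the p57 gene, fell from 72.1 ± 2.81 to 16.2 ± 2.15 CPM (log2 fold change -2.16 ± 0.09, SE, edgeR adjusted p = 1.71e-11), the deepest fall of any inhibitor gene examined. Cdkn2d, the last INK4 gene, was at 6.08 ± 0.381 and 7.72 ± 1.32 CPM and was called higher at the threshold (0.34, edgeR adjusted p = 0.0467). Its call was lost with DESeq2 size factors (adjusted p = 0.0542), limma voom (0.0502), and without wild type replicate 2 or 3 or knockout replicate 4 or 5 (edgeR adjusted p of 0.107, 0.154, 0.0658 and 0.27). Cdkn1a, the p21 gene and a p53 target, was the most abundant inhibitor gene, at 512 ± 63.4 CPM per kb in wild type and 566 ± 28.9 in knockout cells, and was not called (0.14, edgeR adjusted p = 0.13). Library totals called it higher (0.34), as did the fit without a filter on low counts (0.14, edgeR adjusted p = 0.0319) and that leaving out wild type replicate 1 (0.24, edgeR adjusted p = 0.0105).

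Cyclins E and A act after the D-type cyclins. Of 4 tested genes of the cyclin E and A group with Cdk2, 2 rose and 0 fell (median 0.23). That is 50% called, near the 48.6% of all genes. Ccna2, the cyclin of S phase and G2, rose from 3.02 ± 0.71 to 5.91 ± 0.481 CPM (0.96 ± 0.16 log2 units, SE). Ccne1, the partner of CDK2 at the G1/S border, rose by 0.31 (edgeR adjusted p = 0.0426), a call lost with DESeq2 size factors (adjusted p = 0.0509), when low counts were not filtered (0.0733) and without wild type replicate 2 or 3 or any 1 of the knockout libraries (0.0774 to 0.169). Ccne2 (-0.13, edgeR adjusted p = 0.463) and Cdk2 (0.16, edgeR adjusted p = 0.156) were not called, and with library totals Cdk2 was (0.36) and Ccne2 stood at 0.06. Ccna1 had no count in any library.

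The relatives of Rb1 both rose, Rbl1 from 6.44 ± 1.20 to 9.19 ± 1.31 CPM (0.51, edgeR adjusted p = 0.00929) and Rbl2 from 4.11 ± 0.418 to 6.02 ± 0.154 CPM (0.55, edgeR adjusted p = 0.00234). E2F factors and their DP partners, which the retinoblastoma family binds, split into 6 of 10 higher and 4 lower, with a median of 0.35. Over all genes, 24.8% were called higher and 23.7% lower. E2f1 rose from 6.92 ± 1.02 to 12.9 ± 0.974 CPM (0.90 ± 0.12 log2 units, SE). E2f3 rose by 0.60, E2f5 by 0.58, E2f7 by 0.42, and the partner genes Tfdp1 and Tfdp2 by 0.29 and 0.59. E2f8 fell from 18.3 ± 2.19 to 6.14 ± 0.751 CPM, which was the deepest fall of the family at -1.58 ± 0.12. E2f2 fell by 0.83, E2f4 by 0.43, and E2f6 by 0.23. The fall of E2f6 was not called with library totals (-0.04, edgeR adjusted p = 0.77) or without wild type replicate 2 or 3 or knockout replicate 5 or 6 (edgeR adjusted p of 0.0741 to 0.104), and the rise of Tfdp2 was not without knockout replicate 4 (0.47, edgeR adjusted p = 0.0562).

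Genes that E2F factors switch on for DNA replication were mostly higher. Of 23 listed, 17 rose (24.8% of all genes did) and 0 fell (23.7% of all genes did), and their median was 0.48. The list was chosen with the rise of S phase genes in these data known, so its direction is not a separate result. The remaining 6 were not called: Gins1 (0.28), Mcm2 (0.11), Pcna (-0.03), Cdt1 (-0.06), Slbp (-0.14) and Gins2 (-0.25). Slbp and Gins2 were lower in every knockout library than in any wild type library, and DESeq2's test called 2 genes of the list lower. The 4 called genes with the smallest p were the helicase gene Mcm7, which rose by 0.95 from 59.1 ± 1.62 to 114 ± 5.15 CPM, the polymerase gene Pole (1.05), the clamp loader gene Rfc3 (0.90) and the ribonucleotide reductase gene Rrm2 (0.48). Of 6 genes of the MuvB complex and its partners, which repress cycle genes in resting cells and activate them later, 4 rose and 0 fell (median 0.40). That is 66.7% called, beside 48.6% of all genes. The 4 called higher were Rbbp4 (0.47), Foxm1 (0.46), Mybl2 (0.43) and Lin9 (0.36). Mybl2 was not called without wild type replicate 3 or knockout replicate 4 or 5 (edgeR adjusted p of 0.103, 0.159 and 0.0819), and each of these fits called 2 of the 6 higher. Lin9 was not called with limma voom or DESeq2 size factors (adjusted p of 0.0525 and 0.056), nor without wild type replicate 2 or 3 or knockout replicate 4 or 5 (edgeR adjusted p of 0.0624 to 0.277).

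**Figure D5:**
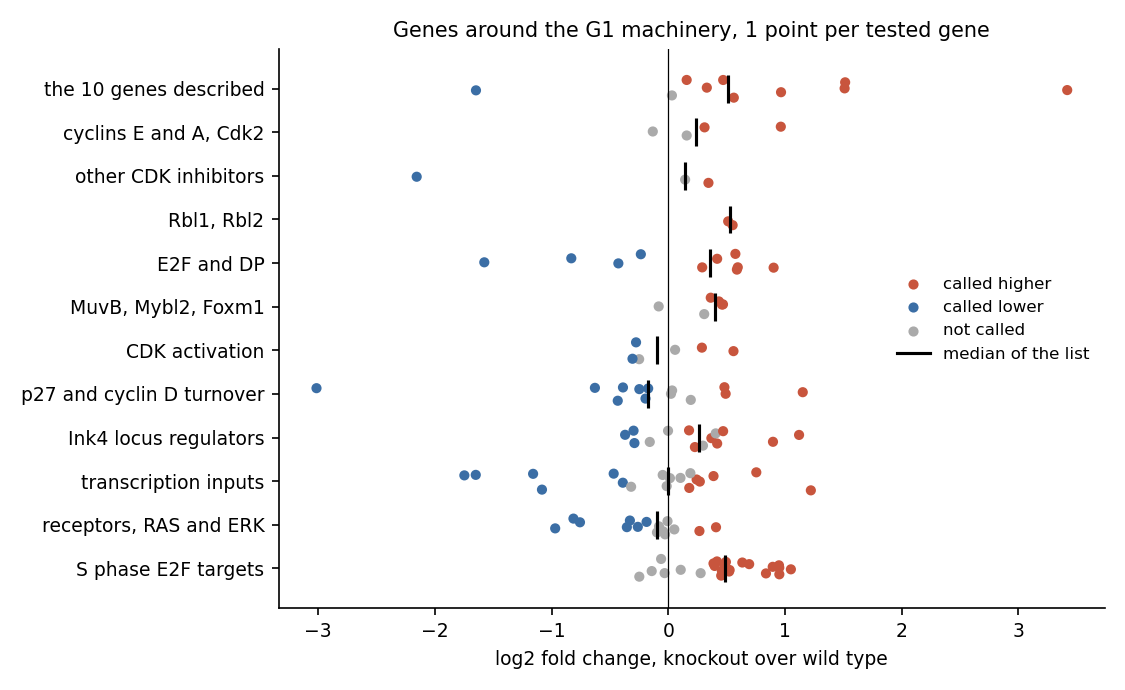
Log2 fold change (knockout over wild type) of every tested gene in the 10 genes and in 11 lists of other genes around G1; red points were called higher, blue lower and grey not called by edgeR, and black bars are list medians. The S phase list of E2F targets has 17 red and no blue points and a median of 0.48, and the E2F and DP list holds points on both sides.

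Genes that supply active kinase or remove p27 and cyclin D showed no common direction. Of 6 CDK activation genes, 2 rose and 2 fell, with a median of -0.10 that was 0.10 with library totals. That is 66.7% called, beside 48.6% of all genes. The phosphatase gene Cdc25a rose by 0.56 and the inhibitory kinase gene Wee1 by 0.29. Cdc37, which loads CDK4 onto HSP90, fell by 0.31, and Cdk7, of the CDK-activating kinase, by 0.28, both calls ending with library totals (-0.11 and -0.08, edgeR adjusted p = 0.108 and 0.425). Of 13 genes of p27 and cyclin D turnover, 3 rose and 7 fell, with a median of -0.17 that was 0.03 with library totals. The share called was 76.9%, beside 48.6% of all genes. Usp2, a deubiquitinase reported to stabilise cyclin D1, fell from 69.6 ± 8.48 to 8.62 ± 0.566 CPM, or by 3.01 ± 0.10 log2 units (SE). Cks1b, a cofactor of SKP2 in the degradation of p27, rose from 11.0 ± 0.516 to 24.6 ± 1.44 CPM (1.15 ± 0.09). Cul1, the scaffold of that ligase, fell by 0.39, and Ambra1, an adaptor that targets D-type cyclins for degradation, fell from 10.7 ± 0.655 to 6.94 ± 0.768 CPM (log2 fold change -0.63, edgeR adjusted p = 3.34e-04). Without knockout replicate 5, 4 of the 13 turnover genes were called lower.

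Upstream of the 10 genes, transcription factors named as inputs to G1 were split, with 6 of 18 higher and 6 lower. That is 66.7% called, beside 48.6% of all genes, and with library totals 10 inputs were higher and 6 lower. The count of higher genes was 2 without wild type replicate 3 or knockout replicate 5 and 3 without knockout replicate 4. Myc, which drives growth and is known to raise Cdk4 and repress Cdkn2b, fell from 70.2 ± 2.10 to 20.9 ± 0.662 CPM (log2 fold change -1.75 ± 0.07, SE, edgeR adjusted p = 1.01e-11). Cdk4 and Cdkn2b both rose (0.47 and 1.52), and a part of Myc in the level of either gene was not tested. Smad3, a transducer of TGF-β, rose from 20.2 ± 0.686 to 47.1 ± 4.75 CPM (1.22 ± 0.08), while the epidermal factors Klf4 and Klf5 fell by 1.65 and 1.08. Of 15 growth factor receptors and RAS and ERK pathway genes, 2 rose and 7 fell, with a median of -0.10 that was 0.10 with library totals, where 4 rose and 4 fell. The share called with TMM was 60%, beside 48.6% of all genes. Map2k1, which encodes the ERK kinase MEK1, fell by 0.76, Egfr by 0.81 and Fgfr2 by 0.97, and Erbb3 rose by 0.41. Only 1 gene of this list was called higher without wild type replicate 1 or 3 or knockout replicate 4 or 6.

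Of 14 genes known to regulate the Cdkn2a and Cdkn2b locus, 7 rose and 3 fell, with a median of 0.26, and with library totals 7 rose and 0 fell. The share called with TMM was 71.4%, beside 48.6% of all genes. The list holds both activators and repressors of the locus, so its counts and median give no direction for the locus. Ets1, an activator of Cdkn2a in culture, rose from 90.2 ± 5.51 to 168 ± 4.95 CPM (0.90 ± 0.06 log2 units, SE). Id1, which opposes it, rose by 1.12 from 11.0 ± 1.30 to 23.8 ± 3.17 CPM. Bmi1, a Polycomb repressor of the locus, rose by 0.42. Dmtf1, an activator of the p19ARF promoter, fell by 0.37, a call that ended with library totals (-0.17, edgeR adjusted p = 0.0513).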

How the data were processed

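Per the labels, 6 RNA libraries were read in pairs of 150 bp. The values deposited by the authors are raw counts of reads per gene, not normalised. The submitters' processing notes name STAR, HTSeq, FastQC and DESeq2 and the builds mm39 and GRCm39. Their versions, the annotation and the strand setting were not found in the sources used. Symbols, exon lengths and gene order came from GENCODE M21, an older build, so no gene positions are given. Promoter windows and their positions are those of RefSeq on GRCm38.p6.

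The test was edgeR's quasi-likelihood test (edgeR 4.0.16, R 4.3.3) with genotype as the only factor, TMM scaling and filterByExpr at a minimum of 10 counts. Calls needed an adjusted p (Benjamini-Hochberg) below 0.05. Standard errors are log2 fold change over the root of F, and CPM are TMM-scaled. Ratios within a library were compared by exact two-sided permutation, and the Benjamini-Hochberg values over the 10 ratios were 0.111, or 0.3 for Ccnd2 over Ccnd3. The fit was also run on simulated data in which few genes were changed, evenly up and down. In the real comparison 48.6% of genes were called, so that simulation cannot judge the scaling or the calls made here. Alternatives were DESeq2 size factors, library totals, other filters, DESeq2 (1.42.0), limma voom (limma 3.58.1) and leaving out each library. The members and lists were chosen with earlier results of these data known. Named genes are all members, the other inhibitors, cyclins E and A, RB relatives and E2F genes, flanking genes, and the 4 called genes with the smallest p of each other list. Lin54, also listed, was not analysed here.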

Additional observations from a re-analysis of the deposited data

How the results depend on the processing

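Of the 10 G1 genes, 8 kept their call and direction under all 12 alternatives: Ccnd1, Cdk4, Cdk6, Cdkn1b, Cdkn2a, Cdkn2b, Cdkn2c and Rb1. Ccnd2 lost its call with DESeq2 size factors (0.15) and with DESeq2's test (0.15), and spanned 0.10 to 0.20 with each library left out. Ccnd3 was called with library totals (0.23) and spanned -0.0036 to 0.049 with each library left out, turning below 0 without wild type replicate 2. With library totals, 6478 of all 17659 genes were called higher and 2452 lower, and the median of all genes became 0.21. Of all genes called, 72.5% were then higher, against 51.1% with TMM, so any list would tend to gain higher calls and lose lower ones. Library totals also called 2 other CDK inhibitors higher, 0 CDK activation genes lower, 6 turnover genes higher and 3 lower, 0 INK4 locus regulators lower, 10 transcription inputs higher, and 4 receptor, RAS and ERK genes higher and 4 lower. DESeq2 size factors gave 0 other CDK inhibitors and 1 gene of cyclins E and A with Cdk2 called higher. With no filter on low counts these were 2 and 1, limma voom gave 0 other inhibitors, and DESeq2's test called 2 S phase genes lower. With each library left out, counts called higher ranged from 0 to 2 for other inhibitors, 1 to 2 for cyclins E and A with Cdk2, 2 to 4 for MuvB genes, 2 to 6 for transcription inputs and 1 to 2 for receptors, and counts called lower from 4 to 6 for turnover genes. Among uncalled genes, direction reversed with library totals for Ccne2 (0.064), LTO1 (0.045), Taf8 (0.055), Fam133b (0.13) and 2810454H06Rik (0.065). With each library left out, 2810454H06Rik spanned -0.41 to 0.39 (above 0 without wild type replicate 2) and Gm15772 -0.00797 to 0.29 (below 0 without knockout replicate 6). Without scaling by length, knockout minus wild type shares of the D-type cyclin sum were 22.8 points for Ccnd1, -20.4 for Ccnd2 and -2.43 for Ccnd3. Apart from the scaling, whose construction moves all genes together, the cause was not tested. No paired analysis was possible because the library numbers of the genotypes (1 to 3 and 4 to 6) are not shared. Counts were low for the scarcest genes named, among them Gm12606, Dmrta1, Lockd, 2810454H06Rik and Trdc. The level at which depth ceases to matter was not tested.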
